A study of Mus musculus with 8 samples.

Results

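The transcripts of 10 Eph receptor genes were followed in mouse islets, out of the 32531 gene symbols in the deposited count table. They were chosen by symbol: the EphA receptor genes Epha2, Epha3, Epha4, Epha5, Epha7 and Epha8 and the EphB receptor genes Ephb2, Ephb3, Ephb4 and Ephb6. All 10 reached the minimum of 10 counts in 4 or more of the 8 libraries and were tested. The question was whether receptor transcripts change in islets whose β cells have active Notch, a setting in which the study examined Ephrin signaling.

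Islet RNA came from 4 control mice and 4 β-tetO-NICD mice. Both groups carried RIP-Cre, in which the Ins2 promoter drives Cre, and Rosa26-rtTA, and both received doxycycline (Dox) for 8 weeks. β-tetO-NICD mice also carried tetO_NICD, so that Cre and Dox together switch on the Notch1 intracellular domain (NICD) in β cells, whereas controls lacked this transgene. All mice were of a mixed C57BL/6J, 129X1/SvJ and BALB/c background. An islet contains other cells besides β cells, and a bulk library cannot tell fewer cells of a type apart from less RNA per cell. The β-tetO-NICD libraries are called NICD libraries 1, 2, 4 and 5, as numbered in the count table.

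Eph receptors are receptor tyrosine kinases whose ligands, the ephrins, are tethered to the membrane of a neighboring cell. EphA receptors mostly bind the lipid-anchored ephrin-A proteins and EphB receptors the transmembrane ephrin-B proteins, and signals pass into both cells, forward through the receptor and in reverse through the ligand. The family is best known for repulsion of growing axons and for sorting cells at tissue boundaries, and in β cells EphA5 and ephrin-A5 have been linked to the control of insulin secretion. NICD acts on transcription through the DNA-binding protein RBPJ, and its targets include Hes genes, whose products are repressors.

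The windows from 250 bases before to 50 bases after each receptor's start site were read from RefSeq on GRCm38.p6, where all 10 genes matched. They were searched on both strands for the RBPJ core, TGGGAA, and for the N-box CACNAG, a Hes site, and no matches of the 2 motifs overlapped in these windows. The RBPJ core was present in 25.6% of 32851 promoter windows of this length and the N-box in 42.5%. Among the receptors, the RBPJ core was found for Epha4 and Epha7, and the N-box for Epha2, Epha3, Epha4, Epha8 and Ephb3. Neither was found for Epha5, Ephb2, Ephb4 or Ephb6. The windows of 3 genes are shown: that of Ephb6, the receptor whose transcript changed, and those of both receptors with an RBPJ core. Each runs 5′ to 3′ on the strand of the gene, and capitals mark a motif on either strand. They lie at chr6:41605261-41605560 (plus strand, Ephb6), chr4:28812881-28813180 (plus strand, the first of 2 Epha7 windows) and chr1:77515039-77515338 (minus strand, Epha4).
Ephb6: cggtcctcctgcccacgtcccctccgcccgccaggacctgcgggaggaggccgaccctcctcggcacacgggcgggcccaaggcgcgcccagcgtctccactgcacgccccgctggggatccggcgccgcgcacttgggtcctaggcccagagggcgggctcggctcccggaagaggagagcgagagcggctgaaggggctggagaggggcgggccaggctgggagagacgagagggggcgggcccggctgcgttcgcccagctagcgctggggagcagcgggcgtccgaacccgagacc
Epha7: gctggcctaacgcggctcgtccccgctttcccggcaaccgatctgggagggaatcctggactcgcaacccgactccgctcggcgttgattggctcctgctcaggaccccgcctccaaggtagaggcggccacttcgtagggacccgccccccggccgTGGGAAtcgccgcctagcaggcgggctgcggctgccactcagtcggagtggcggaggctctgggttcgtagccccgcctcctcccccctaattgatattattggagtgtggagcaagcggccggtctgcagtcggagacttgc
Epha4: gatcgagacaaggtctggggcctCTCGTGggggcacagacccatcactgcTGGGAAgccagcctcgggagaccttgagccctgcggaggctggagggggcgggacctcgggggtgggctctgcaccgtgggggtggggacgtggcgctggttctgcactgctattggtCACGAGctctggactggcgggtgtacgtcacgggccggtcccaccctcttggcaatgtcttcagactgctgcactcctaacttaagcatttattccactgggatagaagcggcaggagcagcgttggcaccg
Relative to the start site, the Epha7 core begins at −93 and the Epha4 core at −200, between N-boxes at −227 and −82. The Ephb6 window holds no match, is 76.3% G and C and contains 34 CpG dinucleotides. A match is a description of the letters in the window and does not show binding. Sequence outside these windows was not searched, so the lack of a match does not show that a gene has no site.

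Libraries held between 21701223 and 26413146 counts. The 10 receptors together took between 0.00431% and 0.00679% of them, so these are low-abundance transcripts. A floor of 3 counts corresponded to between 0.0995 and 0.151 CPM (counts scaled to TMM library sizes) and covers counting error only. Every receptor was above this floor in every library, and the lowest value was 13 counts of Epha3 in control 3. Notch1, part of which the transgene encodes, rose from 56.8 ± 10.7 to 1029 ± 331 CPM (SD, n = 4 per group), and the libraries matched their labels. Libraries differed in other ways. Transcript length was compared, over 14655 genes, with how far each library lay from the mean log2 CPM of all libraries, and Spearman's rank correlation was between 0.418 and 0.497 in controls 1, 2 and 4 and NICD library 1, and between −0.521 and −0.174 in control 3 and NICD libraries 2, 4 and 5. The Y-linked gene Eif2s3y had at least 1300 counts in controls 2 and 4 and NICD library 5 and at most 1 count in the other 5 libraries, although the study's methods name male islets for gene expression. Summed markers of islet and other cells were also compared. Markers of α cells were between 12070 and 43157 CPM in controls and between 55509 and 70490 CPM in β-tetO-NICD libraries, with 3 of 6 called higher, and those of δ cells between 2437.5 and 6583 and between 5083 and 14136 CPM, with 1 of 4, Hhex, called higher. Markers of leukocytes were between 142 and 188 and between 211 and 302 CPM. Of these 7 markers, C1qa alone was called, at mean levels of 77.6 and 150 CPM (log2 fold change 0.95), followed by C1qb (0.75, adjusted p = 0.113), and the other 5 were between −0.38 and 0.32. Markers of β cells were between 154677 and 195671 and between 71558.5 and 171499 CPM, with 2 of 8 called lower. No marker was at or under the floor in all libraries.

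Of the 10 receptors, Ephb6 alone passed an adjusted p of 0.05, and it fell in β-tetO-NICD islets. None rose by this test (quasi-likelihood test of edgeR, adjusted by Benjamini-Hochberg over all 15082 genes tested). Across all genes, 6.76% passed, 4.19% higher and 2.57% lower, so that 1 in 10 receptors is near the background. At an unadjusted p under 0.05 there were 3 receptors, with Ephb2 and Ephb3 higher and Ephb6 lower, whereas 31.6% of all genes reached this level. Ephb6 and Ephb3 were the only receptors whose groups did not overlap, 2 of 10 beside 16.1% of all genes. The receptors' median log2 fold change was 0.21, with 6 above 0 and 4 below, beside a median of 0.0008 for all genes. The receptors' median turned to −0.12 with the replicate block, a fit of the 4 libraries numbered 1 and 2, where that of all genes was −0.0030. With 1 library left out it lay between 0.06 without NICD library 5 and 0.38 without control 2. It was 0.50 with an offset for transcript length and 0.55 in the libraries with at most 1 Eif2s3y count. There the medians of all genes were 0.0050 and 0.0069. With scaling to Ppia, the reference gene of the study's quantitative PCR, the receptors' median was −0.36 and that of all genes −0.43. The level of Ppia itself was 268 ± 34.3 CPM in the control group against 391 ± 136 CPM with NICD (SD, n = 4), and 567 CPM in NICD library 5, and its log2 fold change of 0.54 (adjusted p = 0.161) enters every value scaled to it. The same count of 1 receptor came from limma-voom, whereas DESeq2 called 2, Ephb2 and Ephb6, where it called 18.2% of all genes.

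**Figure D1:**
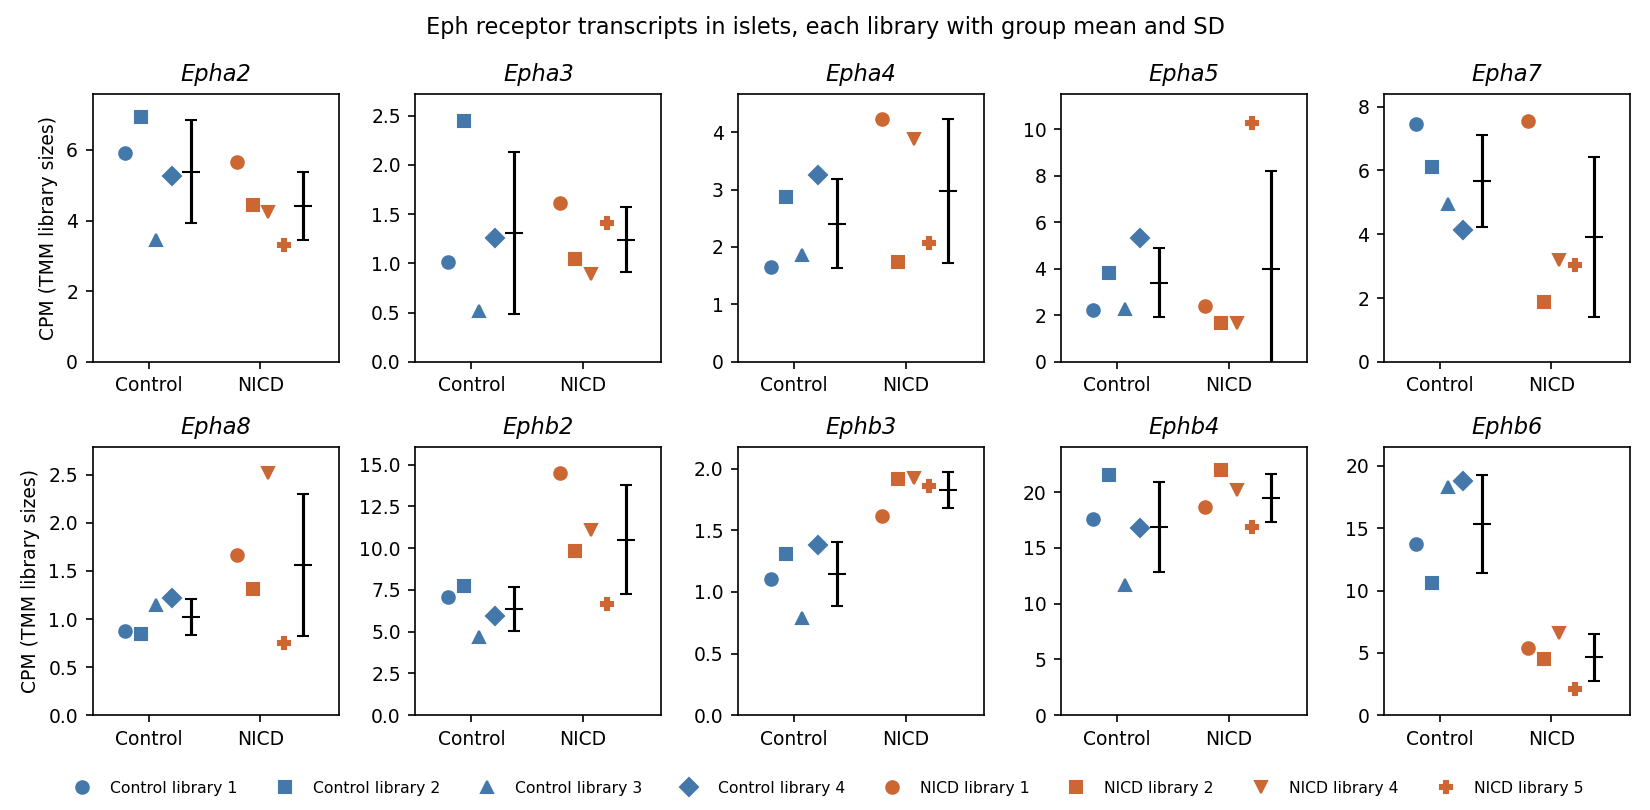
Level of each of the 10 Eph receptor transcripts in CPM (linear axes from 0, a separate scale for each gene) in the 4 control and 4 β-tetO-NICD libraries, with points for libraries and a bar for the group mean and SD. The 4 NICD values of Ephb6 lie below all 4 controls, those of Ephb3 lie above, and for the other 8 receptors the groups overlap; the SD of Epha5 in NICD libraries runs below the axis.

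Ephb6 encodes an unusual family member whose kinase domain is catalytically inactive, and which signals together with other Eph receptors. Its gene lies at chr6:41605482-41620509 on the plus strand of GRCm38, and its 3′ end is 115 bases from the 3′ end of Trpv6, which lies on the other strand. Ephb6 was measured at 13.7, 10.6, 18.3 and 18.8 CPM in controls 1 to 4, from 298, 251, 464 and 463 counts. In NICD libraries 1, 2, 4 and 5 it was at 5.37, 4.49, 6.60 and 2.11 CPM, from 113, 103, 199 and 42 counts. The highest β-tetO-NICD library was below the lowest control. The means were 15.4 ± 3.91 and 4.64 ± 1.90 CPM (SD, n = 4 per group). By the fitted fold change of edgeR, controls had 3.29-fold the level of β-tetO-NICD islets. The log2 fold change was −1.72 (standard error 0.33, 95% interval −2.46 to −0.98, quasi-likelihood test of edgeR, adjusted p = 0.0166 by Benjamini-Hochberg). Trpv6, a calcium channel gene, was low, at 0.885 ± 0.419 and 0.648 ± 0.551 CPM (SD, n = 4 per group), and its log2 fold change of −0.46 missed the threshold (adjusted p = 0.588).

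Leaving out each library in turn gave Ephb6 estimates between −1.94 and −1.48. The call was kept in 6 of these 8 fits and lost without control 4 (log2 fold change −1.60, adjusted p = 0.0569) and without NICD library 2 (−1.70, adjusted p = 0.0627). It was also lost in the 5 libraries with at most 1 Eif2s3y count, 2 controls against 3 β-tetO-NICD libraries (−1.54, adjusted p = 0.0572), and with scaling to Ppia (−2.03, adjusted p = 0.0964). With an offset for transcript length it was −1.66 (adjusted p = 0.0117), and with the acinar marker score as covariate −1.70 (adjusted p = 0.0262). The summed α cell and leukocyte markers, given above, also separated the groups, in the other direction, the latter mainly through C1qa and C1qb. The β cell marker sums overlapped. Of those 8 markers, 6 had log2 fold changes below 0 and 2 above, and Slc2a2 (−1.80) and Ucn3 (−1.11) were called lower, like Ephb6. The part of these cell types in the Ephb6 level was not tested.

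The 3 genes with the pattern most like Ephb6, by Pearson's r of log2 CPM over the 8 libraries among 12747 candidates, were Fam83g (0.987), Nampt (0.981) and Pitrm1 (0.978). Nampt encodes an enzyme of NAD synthesis and Pitrm1 a mitochondrial peptidase. Their log2 fold changes were −0.67, −0.50 and −1.01. The correlations include the difference between the groups and describe the same 8 libraries.

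Ephb2 encodes a receptor of axon guidance that binds ephrin-B ligands and also ephrin-A5. It was at 7.10, 7.72, 4.71 and 5.92 CPM in controls 1 to 4 and at 14.5, 9.82, 11.1 and 6.65 CPM in NICD libraries 1, 2, 4 and 5. NICD libraries 1, 2 and 4 were above every control, and NICD library 5 was within the control range. The log2 fold change was 0.73 (standard error 0.26, 95% interval 0.14 to 1.31), which missed the threshold in the quasi-likelihood test of edgeR (adjusted p = 0.106). Ephb2 has the longest annotated transcript of the 10 receptors, 10902 bases, and the length trend at this length was −0.63 on the log2 scale, β-tetO-NICD minus control. With the offset for this trend the log2 fold change was 1.33 (adjusted p = 0.00285), and Ephb2 and Ephb6 were then the 2 receptors called, where 10.3% of all genes were called. With DESeq2 the value was 0.73 (adjusted p = 0.0489), and with scaling to Ppia 0.38 (adjusted p = 0.582). In the 8 fits that left out a library it was between 0.53 and 0.89 and never called.

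Ephb3 encodes a receptor that positions cells in the intestinal crypt. It was low, at 1.11, 1.31, 0.791 and 1.38 CPM in controls 1 to 4 and at 1.61, 1.92, 1.92 and 1.86 CPM in NICD libraries 1, 2, 4 and 5. The groups did not overlap, but each library rested on between 20 and 58 counts. The log2 fold change was 0.67 (standard error 0.27, 95% interval 0.07 to 1.28) and missed the threshold in the quasi-likelihood test of edgeR (adjusted p = 0.131). The estimate was above 0 under every alternative, between 0.20 with scaling to Ppia and 0.94 in libraries with at most 1 Eif2s3y count, and was called under none.

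Ephb4 encodes the receptor for ephrin-B2 on venous endothelium. It was at 17.6, 21.6, 11.7 and 16.7 CPM in controls 1 to 4 and at 18.7, 22.0, 20.2 and 16.9 CPM in NICD libraries 1, 2, 4 and 5. Apart from control 3, the lowest, the libraries of both groups covered the same range. The log2 fold change was 0.20 (standard error 0.19, 95% interval −0.23 to 0.64, adjusted p = 0.475), the narrowest interval among the receptors, and it was −0.25 with scaling to Ppia. With 1 library left out it lay between 0.06 without control 3 and 0.35 without control 2. Ephb4 overlaps Zan on the opposite strand, and the strand setting of the pseudoalignment is not given in the sources used here.

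Ephb4 tracked the summed level of 8 endothelial markers across the 8 libraries. Of these markers, Esam, Plvap and Emcn had log2 fold changes between 0.51 and 0.55. Pecam1, Cdh5, Kdr, Flt1 and Tek were between −0.35 and −0.06, and none of the 8 was called. The largest control means were 162, 148 and 124 CPM, for Plvap, Kdr and Flt1. Ephb4 was between 2.38% and 2.74% of the endothelial sum in controls and between 2.58% and 2.92% in β-tetO-NICD libraries. Pearson's r was 0.969 (exact permutation test, two-sided p = 0.000471, adjusted p = 0.0223) and Spearman's rank correlation 0.952 (exact permutation test, p = 0.00114, adjusted p = 0.0821). Without the 2 libraries farthest from the median, controls 2 and 3, r was 0.920. The relation was 1 of 72 computed, for 8 receptors against 8 marker sums and the length trend whose ranges overlap between the groups, a search made after the data had been seen. Ephb2 gave the other relation with an adjusted p under 0.05, falling as the sum of 8 β cell markers rose (r = −0.951, exact permutation test, p = 0.00062, adjusted p = 0.0223). Its Spearman rank correlation was −0.786 (adjusted p = 0.335 from the exact permutation test), and r was −0.833 without NICD libraries 1 and 4. Most of the β cell marker sum came from Ins1, Ins2 and Iapp, with control means of 44192, 113042 and 14384.5 CPM. Slc2a2 followed at 500 CPM. The length trend, as a log2 difference between the groups, was 0.50 for Ins1, 0.56 for Ins2 and −0.63 for Ephb2. Its part in the relation was not tested. With the group means removed and libraries permuted within each group only, in all 576 arrangements, r was 0.979 for Ephb4 (two-sided p = 0.00174 by exact permutation, which is the minimum for this number of arrangements, adjusted p = 0.125 over the 72 relations). For Ephb2 it was −0.905 (exact permutation test, p = 0.0226, adjusted p = 0.344). With so few arrangements and 72 relations, no single relation could reach an adjusted p of 0.05 within groups. Of the marker lists, the acinar score alone was fitted as a covariate, with log2 fold changes of 0.21 for Ephb4 and 0.70 for Ephb2.

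**Figure D2:**
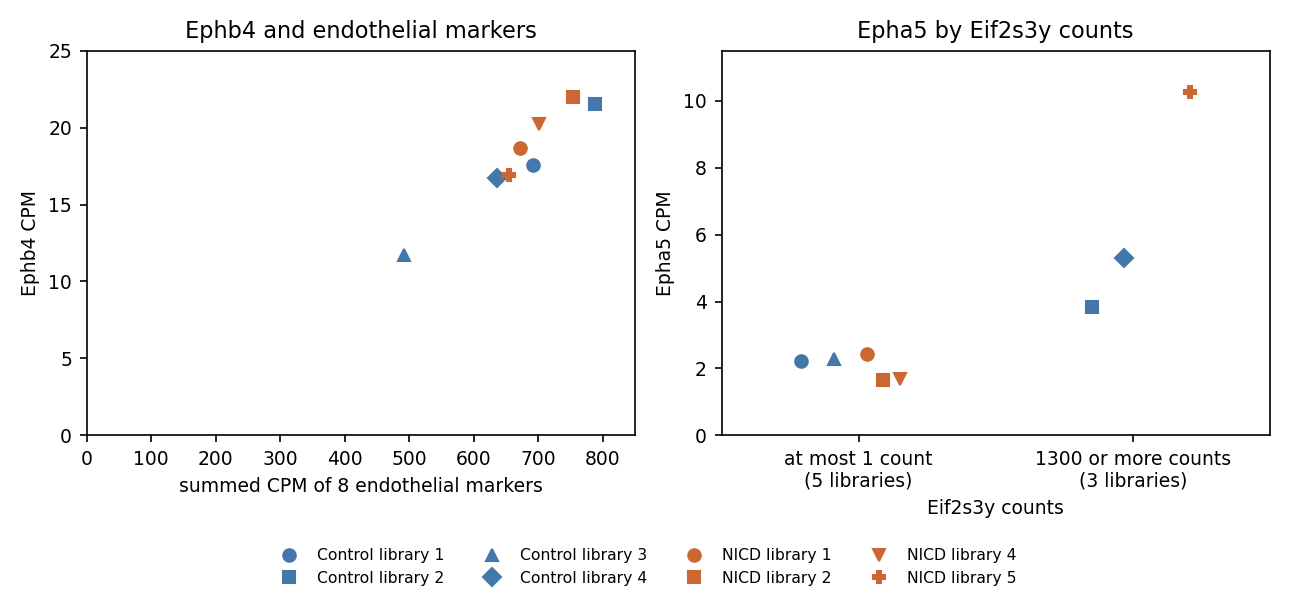
Left, Ephb4 (CPM) against the summed CPM of 8 endothelial markers, 1 point per library; right, Epha5 (CPM) in the 5 libraries with at most 1 Eif2s3y count and the 3 libraries with 1300 or more. Ephb4 rises with the marker sum in libraries of both groups, and the 3 libraries with Eif2s3y counts have the 3 highest Epha5 values.

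Among the EphA receptors, none passed the test, and the groups overlapped for all 6. Epha2, an epithelial receptor for ephrin-A1, was between 3.44 and 6.92 CPM in controls and between 3.32 and 5.65 CPM in β-tetO-NICD libraries (log2 fold change −0.28, 95% interval −0.87 to 0.31, adjusted p = 0.465). Epha3, a receptor of retinal axon mapping, was between 0.514 and 2.45 CPM and between 0.896 and 1.61 CPM, and its value was −0.08 (95% interval −1.09 to 0.93, adjusted p = 0.913), which turned to 0.42 without control 2 and 0.06 without NICD library 4. Control 2 and control 3 were the highest and the lowest of all 8 libraries for Epha3, as they were for the marker sums of mesenchyme, at 801 and 238 CPM, and of endothelium, at 788 and 492 CPM. Across the 8 libraries Epha3 and the mesenchyme sum had r = 0.892 (exact permutation test, adjusted p = 0.164; Spearman's rank correlation 0.786, adjusted p = 0.335), and r was 0.411 without these 2 libraries, so the relation rests on them. Epha4, which binds ephrins of both classes, was between 1.66 and 3.24 CPM and between 1.75 and 4.23 CPM (log2 fold change 0.31, 95% interval −0.50 to 1.12, adjusted p = 0.566). With 1 library left out Epha4 lay between 0.0981 without NICD library 1 and 0.49 without NICD library 2. Epha8 was between 0.844 and 1.22 CPM and between 0.755 and 2.52 CPM (log2 fold change 0.62, 95% interval −0.22 to 1.46, adjusted p = 0.269). Its estimate was 0.28 without NICD library 4 and 0.84 without NICD library 5.

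Epha5, the receptor linked to insulin secretion, had the widest spread. It was at 2.21, 3.84, 2.29 and 5.31 CPM in controls 1 to 4 and at 2.42, 1.66, 1.69 and 10.3 CPM in NICD libraries 1, 2, 4 and 5. NICD library 5 was the highest of all 8, NICD libraries 2 and 4 were below every control, and NICD library 1 was within the control range. The log2 fold change was 0.22 (standard error 0.61, 95% interval −1.13 to 1.58, adjusted p = 0.816), and −0.83 without NICD library 5 (adjusted p = 0.209). Epha5 was between 3.84 and 10.3 CPM in the 3 libraries with Eif2s3y counts and between 1.66 and 2.42 CPM in the other 5. It was the only receptor whose ranges did not overlap by this split, as in 3.49% of the genes tested. This split was made after the data had been seen, and its part in the Epha5 levels was not tested.

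Epha7, which also exists in truncated forms without the kinase domain, was at 7.47, 6.12, 4.94 and 4.14 CPM in controls 1 to 4 and at 7.55, 1.88, 3.19 and 3.02 CPM in NICD libraries 1, 2, 4 and 5. NICD libraries 2, 4 and 5 were below every control, whereas NICD library 1 was the highest of all 8. The log2 fold change was −0.54 (standard error 0.40, 95% interval −1.43 to 0.36, adjusted p = 0.363). Without NICD library 1 it was −1.07 (adjusted p = 0.0241), in a fit that called 33.2% of all genes. It was −0.31 without NICD library 2 (adjusted p = 0.631) and −0.26 with the length offset (adjusted p = 0.592). NICD library 1 also had the highest summed acinar markers, 115320 CPM against 31684 to 76513 CPM in the others, and the acinar covariate gave −0.68 (adjusted p = 0.185).

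**Figure D3:**
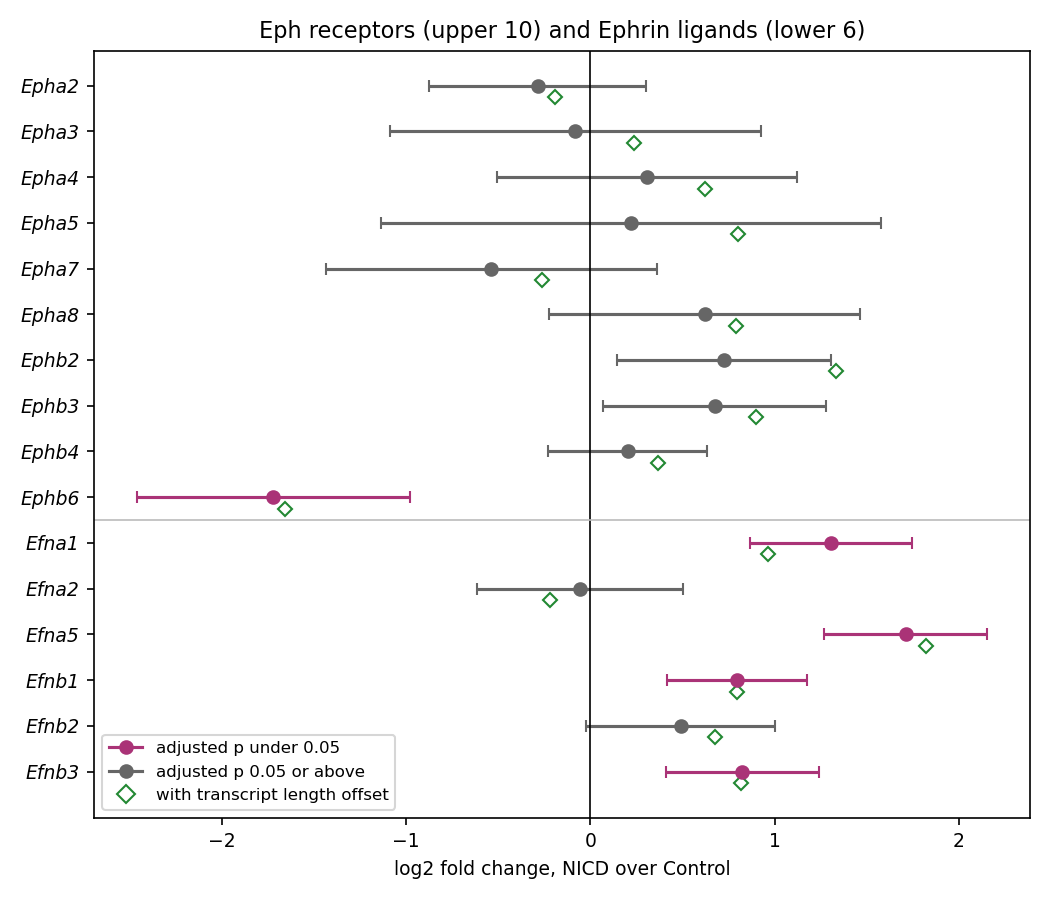
Log2 fold change (β-tetO-NICD over control, TMM) of the 10 receptors and the 6 tested ligands, with 95% intervals from edgeR's quasi-likelihood fit; open diamonds give the estimate with the transcript length offset. Ephb6 at −1.72 is the only receptor with an adjusted p under 0.05, and 4 of the 6 ligands lie to the right of 0 with an adjusted p under 0.05.

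Levels of different receptors were compared as CPM per kilobase of the longest annotated transcript. In controls the order of means was Ephb6 (4.08 ± 1.04), Ephb4 (3.90 ± 0.934), Epha2 (1.38 ± 0.374), Epha7 (0.840 ± 0.215), Ephb2 (0.584 ± 0.122), Epha5 (0.466 ± 0.201), Epha4 (0.381 ± 0.122), Ephb3 (0.241 ± 0.0555), Epha3 (0.231 ± 0.145) and Epha8 (0.217 ± 0.0400; SD, n = 4). Ephb6 and Ephb4 did not differ beyond their spread, and each was the first in 2 controls. Further down, the neighbors Ephb2 and Epha5, Epha5 and Epha4, Ephb3 and Epha3, and Epha3 and Epha8 also differed by less than the larger of their SDs. In β-tetO-NICD islets Ephb4 was first in all 4 libraries (4.48 ± 0.498), and Ephb6 (1.23 ± 0.504) was at the level of Epha2 (1.13 ± 0.245), ranking between 2 and 5. The order rests on the transcript length used. With the median transcript length in place of the longest, Epha2 moved from the third place to the second in controls and to the first in β-tetO-NICD islets, where Ephb4 was the third. The median annotated transcript of Epha2 is 531 bases and its longest 3913, and those of Ephb6 are 665 and 3762 bases.

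**Figure D4:**
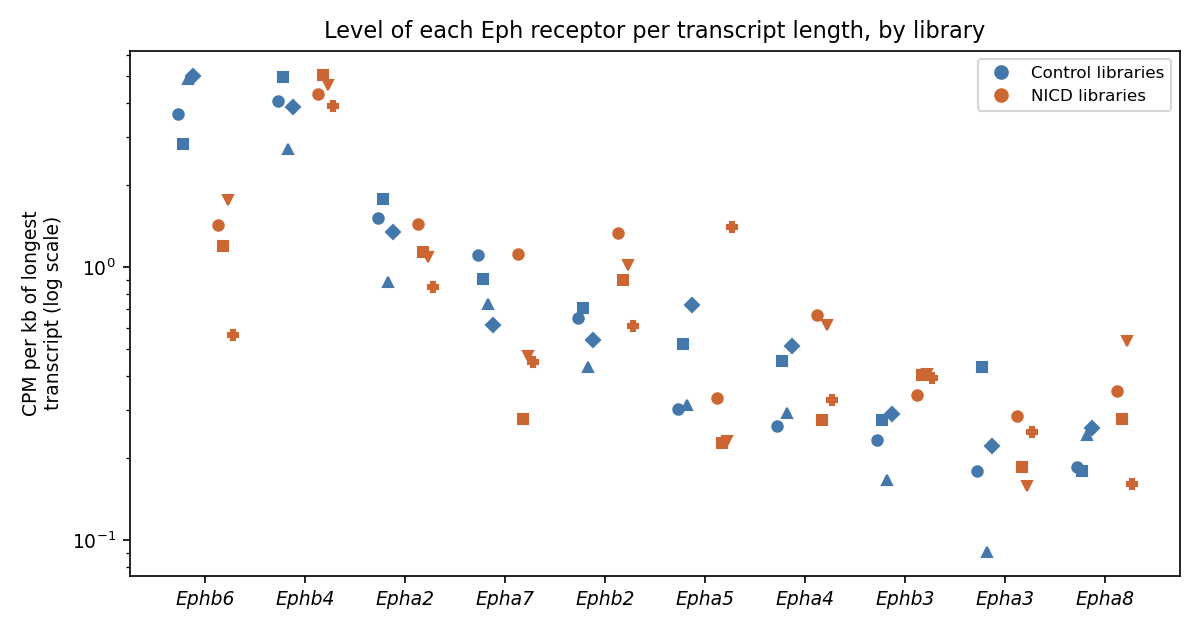
Level of each receptor in CPM per kilobase of its longest annotated transcript (log axis), 1 point per library, ordered by the control mean. Ephb6 and Ephb4 share the top of the order in controls, and in β-tetO-NICD libraries Ephb6 lies near Epha2.

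On this scale Ephb6 made up 33.6% ± 10.2 of the summed level of the 10 receptors in controls and 11.7% ± 4.02 in β-tetO-NICD islets (SD, n = 4), with no overlap (21.6% to 45.5% and 6.32% to 16.1%). Shares of a sum move together. The share of Ephb4 was 31.4% ± 5.62 and 43.6% ± 5.68, that of Ephb2 4.72% ± 0.783 and 9.17% ± 1.89, and that of Epha2 11.1% ± 2.40 and 10.8% ± 1.34. These shares, like the order, rest on the transcript length. With the median length the share of Ephb6 was 49.9% ± 12.0 and 21.9% ± 6.58, still with no overlap, and that of Ephb4 9.42% ± 2.35 and 16.5% ± 2.89. The summed EphB level was 8.80 ± 0.638 CPM per kilobase in controls and 7.07 ± 1.08 in β-tetO-NICD islets. With the median length it was 31.4 ± 4.58 and 18.4 ± 4.18, with no overlap at either length, whereas divided by Ppia the EphB sums overlapped (2.605% to 3.61% of the CPM of Ppia in controls and 0.964% to 3.03% in β-tetO-NICD islets). Without Ephb6 the EphB sum was 4.72 ± 1.10 and 5.83 ± 0.644, in the opposite direction, with overlap on this scale and with the median length, and this flips when the sum is divided by Ppia (1.81% ± 0.594 of the CPM of Ppia in controls and 1.66% ± 0.656 in β-tetO-NICD islets). The summed EphA level was 3.51 ± 0.711 and 3.28 ± 0.756, with overlap.

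The receptors are read here beside their ligands. Of the 8 ligand genes, 6 were tested and 4 passed, all higher in β-tetO-NICD islets, beside 4.19% of all genes called higher, whereas Efna3 and Efna4 had too few counts. The α cell and leukocyte marker sums, given above, were also higher in every β-tetO-NICD library than in every control, whereas the δ cell sums overlapped. The part of these cell types in the ligand levels and ratios was not tested. Among ephrin-A genes, the log2 fold change was 1.31 for Efna1 (adjusted p = 0.00548) and 1.71 for Efna5 (adjusted p = 0.00139). Among ephrin-B genes it was 0.80 for Efnb1 (adjusted p = 0.0251) and 0.83 for Efnb3 (adjusted p = 0.0303). It was −0.06 for Efna2 (0.02 with upper-quartile normalization) and 0.49 for Efnb2 (adjusted p = 0.890 and 0.172). With the transcript length offset 5 ligands were called, the 4 named and Efnb2 (0.68, adjusted p = 0.0319), where 10.3% of all genes were called. The paper's quantitative PCR, relative to Ppia, reported all expressed ligands as higher in β-tetO-NICD islets. For the sequencing counts scaled to Ppia, the estimates of the 4 called ligands were lower but above 0, and none passed. None passed either in the 5 libraries with at most 1 Eif2s3y count, where the estimates were 1.28 for Efna1, 1.46 for Efna5, 0.83 for Efnb1 and 0.89 for Efnb3, with adjusted p between 0.0694 and 0.169. The count was 2, Efna1 and Efna5, without each of controls 2, 3 and 4 and NICD libraries 2 and 4, and also with the replicate block. Without those libraries the estimate of Efnb1 was between 0.72 and 0.80 and that of Efnb3 between 0.78 and 0.83. With the block Efnb1 was at 0.74 and Efnb3 above its value from all libraries. Without control 1 the call of Efnb3 was lost too (0.89, adjusted p = 0.0633). Of the 8 fits with 1 library left out, Efnb1 was called in 3 and Efnb3 in 2, whereas Efna1 and Efna5 were called in all 8.

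Summed Efna ligand transcripts per kilobase were 4.44 ± 1.45 times the summed EphA receptor transcripts in controls and 11.7 ± 3.62 times in β-tetO-NICD islets (SD, n = 4). The ranges, 3.37 to 6.52 and 8.46 to 16.8, did not overlap. For the B class the ratio was 1.93 ± 0.266 in controls and 4.05 ± 0.333 in β-tetO-NICD islets, with ranges of 1.65 to 2.29 and 3.78 to 4.52. With the median transcript length the ratios were 3.07 ± 1.19 and 10.3 ± 2.50 for the A class and 1.36 ± 0.316 and 3.90 ± 0.288 for the B class, with no overlap for either. The Efna sum was 14.9 ± 1.79 and 36.5 ± 4.38 CPM per kilobase, and the Efnb sum 16.9 ± 1.87 and 28.7 ± 5.48, with no overlap for either. Relative to Ppia, the Efna sums still did not overlap, whereas the Efnb sums did. A ratio within a library does not depend on how libraries are scaled, but it can move with transcript length. The length trend, as a log2 difference between the groups, was 0.33 for Efna1, −0.11 for Efna5 and between −0.43 and −0.10 for the EphA receptors. It was −0.0024 for Efnb1, −0.20 for Efnb2, 0.0093 for Efnb3 and between −0.63 and −0.08 for the EphB receptors. Its part in either ratio was not tested. Transcripts of a ligand and a receptor need not come from cells that touch.

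**Figure D5:**
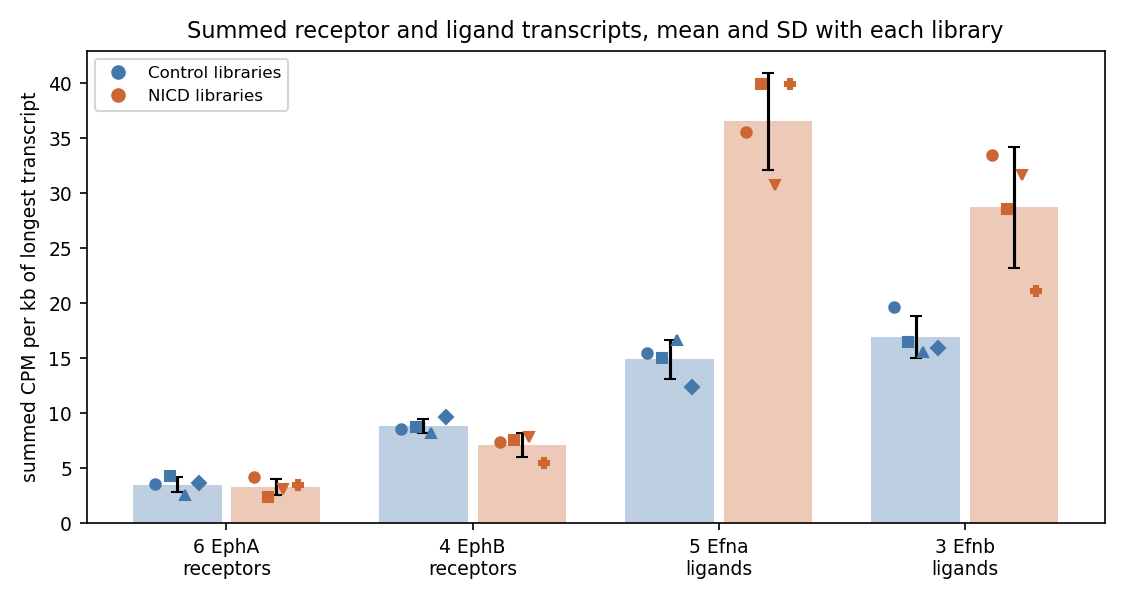
Summed CPM per kilobase of longest transcript for the 6 EphA and 4 EphB receptors and the 5 Efna and 3 Efnb ligands, with bars for means from 0, error bars for SD and points for libraries. With TMM library sizes both ligand sums are higher in every β-tetO-NICD library than in every control, and the EphB receptor sums are lower, whereas divided by Ppia the Efnb and EphB sums overlap, and the EphA receptor sums overlap on both scales.

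A further 4 Eph receptor genes are in the table. Epha1 and Ephb1 were tested, and neither passed (log2 fold change −0.05, adjusted p = 0.912, and 0.97, adjusted p = 0.163). Ephb1 was at 0.675 ± 0.187 and 1.33 ± 0.686 CPM (SD, n = 4 per group). Epha10, which like Ephb6 lacks kinase activity, had at most 14 counts in any library, and Epha6 had 0 counts in all 8.

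Downstream of the receptors, 51 of 52 genes of Eph signaling could be tested, and 2 passed, both lower, a share below the 6.76% of all genes that passed. Chn1, the Rac GTPase-activating protein α-chimaerin that acts after EphA4, was at 46.9 ± 7.83 CPM in controls and fell by 1.11 on the log2 scale (standard error 0.17, adjusted p = 0.00575). Grip1, a PDZ adaptor that binds ephrin-B ligands and EphB receptors, was at 14.2 ± 2.82 CPM and fell by 1.34 (standard error 0.24, adjusted p = 0.0118; SD, n = 4). With the replicate block on numbers 1 and 2, which holds 4 libraries, Grip1 kept its call (−1.28, adjusted p = 0.0426) and Chn1 did not (−0.80, adjusted p = 0.230). Neither passed in the libraries with at most 1 Eif2s3y count or with scaling to Ppia, although the estimates stayed below −1. They were −1.03 for Chn1 (adjusted p = 0.0863) and −1.10 for Grip1 (adjusted p = 0.191) in these libraries, and −1.48 (adjusted p = 0.0726) and −1.69 (adjusted p = 0.129) with Ppia. No gene of the list rose by edgeR's quasi-likelihood test with all 8 libraries and no offset. With the transcript length offset 6 were called, where 10.3% of all genes were: Chn1, Grip1 and Ezr lower, and Src (0.50, adjusted p = 0.0327), Tiam1 (0.76, adjusted p = 0.00935) and Vav3 (0.87, adjusted p = 0.0363) higher. Src encodes a kinase, and Tiam1 and Vav3 encode exchange factors of Rac. At an unadjusted p under 0.05 there were 6 higher and 11 lower, 17 of 51 beside 31.6% of all genes. The list's median log2 fold change was −0.12. The count was 2 with limma-voom, 12 with DESeq2 (3 higher and 9 lower), where 18.2% of all genes were called, and 17 without NICD library 1 (3 higher and 14 lower), where 33.2% of all genes were called.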

How the data were processed

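Islet RNA of 4 control and 4 β-tetO-NICD mice was sequenced from stranded poly(A) libraries (TruSeq). The authors pseudoaligned the reads with kallisto to GRCm38, per the submitters' processing notes, and deposited whole-number counts per gene symbol, not normalized. The kallisto version, its strand setting and the annotation are not given in the sources used here. A second deposited table holds fold changes, p-values and scores of the authors' own comparison, made with limma through BioJupies, and was not used. NICD columns 4 and 5 match the β-tetO-NICD group but no particular mouse. Columns of per-sample values left unused numbered 0.

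The receptors, the gene lists and the tests were chosen with earlier results of these data known. The genes that reached 10 counts in 4 or more libraries were tested in R 4.3.3 with edgeR 4.0.16 (TMM, glmQLFit, glmQLFTest, no covariate), adjusted by Benjamini-Hochberg over all 15082 genes and called under 0.05. Where no other test is named, an adjusted p is from this one, and p-values measure the spread between these mice. The script was tested on simulated data. Alternatives were DESeq2 1.42.0, limma-voom (limma 3.58.1), other normalizations and filters, offsets, covariates and left-out libraries. Scaling to Ppia and leaving out control 3 with NICD library 1 were added after the data had been seen. Named genes were the 10 receptors, the other Eph receptors and ligands, called genes of the Eph signaling list, and the 3 genes most like the receptor with the lowest p. Trpv6, a neighbor of Ephb6, and the list genes added by the length offset were named outside this rule, after their values were seen. CPM values used TMM library sizes, and log2 CPM a prior count of 2. Levels per kilobase used GENCODE M21 lengths. Relations across libraries were tested by permuting all 40320 arrangements, and, added later, by permuting within groups. No within-group pair of libraries agreed within sampling noise.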

Additional observations from a re-analysis of the deposited data

Results flagged for a closer look

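Of 32 groups of 4 libraries examined, the 10 receptors and 6 tested ligands in each genotype, 1 held a library far from the others. Epha5 was at 10.3 CPM in NICD library 5 and between 1.66 and 2.42 CPM in the other 3 β-tetO-NICD libraries, a gap of 0.911 of the whole range, above the critical value for 4 samples. Chance alone gives about 1 such group in 20.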

How the results depend on the processing

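Against 1020 genes in all, DESeq2 called 2739, the libraries with at most 1 Eif2s3y count 122, the replicate block on numbers 1 and 2 595, the fit without control 3 and NICD library 1 5930, scaling to Ppia 161, and the fits with 1 library left out 374 to 5010. Receptors called, 1 with all libraries, were 2 with DESeq2, 2 with the length offset, 0 in the libraries with at most 1 Eif2s3y count, 2 without control 3 and NICD library 1 (Epha7 and Ephb6), 0 with scaling to Ppia and 0 to 2 with 1 library left out. Ligands called, 4 at first, were 0, 2 and 0 in the Eif2s3y subset, with the replicate block and with Ppia, and 2 to 4 with 1 library left out. In the Eif2s3y subset their estimates stayed between 0.83 and 1.46. Genes of the Eph signaling list, 2 at first, were 12 with DESeq2, 6 with the length offset, 0 in the Eif2s3y subset, 1 with the replicate block, 20 without control 3 and NICD library 1, 0 with Ppia and 2 to 17 with 1 library left out. Log2 fold changes changed sign only in receptors and ligands that were not called. That of Epha2 became 0.0353 in the Eif2s3y subset. That of Epha3 became 0.0794 with limma-voom, 0.24 with the length offset and 0.63 in the Eif2s3y subset. That of Epha4 became −0.0081 without control 3 and NICD library 1 and −0.0056 with Ppia. That of Epha5 became −0.20 with limma-voom, −0.23 in the Eif2s3y subset, −0.54 with the replicate block and −0.48 with Ppia. That of Ephb4 became −0.25 with Ppia and that of Efna2 0.0175 with upper-quartile normalization. With 1 library left out, Epha3 ranged from −0.35 to 0.42, Epha5 from −0.83 to 0.53 and Efna2 from −0.20 to 0.0607. The cause of these changes was not tested. Same-numbered libraries correlated at 0.276 and −0.0901 in their deviations for numbers 1 and 2, the only settled numbers, so the samples share only a number. With the replicate block Ephb6 was at −1.30 (adjusted p = 0.0458). Counting error limits Epha3, Epha8 and Ephb3 most, which had fewer than 80 counts in every library.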
